A study of Rattus norvegicus with 4 samples.

Results

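Control genes of liver glucose metabolism were followed in rats given a liver toxicant. The set held every array feature whose only gene symbol was Pklr, Gckr, Pfkfb1, Pdk2, Pck1 or Slc2a2. These were 7 of the 1936 features and stood for 6 of the 958 genes with a symbol of their own, since Pfkfb1 had 2 features and each other gene 1. Male Sprague-Dawley rats had received either α-naphthylisothiocyanate (ANIT), a toxicant of the bile duct epithelium, at 75 mg/kg by intraperitoneal injection in olive oil, or the same volume of olive oil alone, and livers were taken 24 h later. RNA from the right lateral lobe of 3 rats per condition was mixed, which left 1 pool per condition. The 2 pools competed on each of 4 spotted cDNA arrays in a dye swap, where Cy5 marked the ANIT pool on arrays 1 and 3 and the olive oil pool on arrays 2 and 4. These hybridisations were taken to repeat 1 pair of pools, so every SD below (n = 4 hybridisations) leaves out the spread between animals, and no p-value for the treatment can be given.

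The liver takes up glucose and breaks it down when food is plentiful, and makes glucose for the blood when it is not. Glucokinase traps incoming glucose in the cell, and Gckr, the glucokinase regulatory protein, holds that enzyme inactive in the nucleus while glucose is low. Pfkfb1, a bifunctional enzyme, makes and removes the fructose bisphosphate that switches phosphofructokinase on, Pklr is the liver pyruvate kinase that completes glycolysis, and Pdk2 is a kinase that shuts off pyruvate dehydrogenase. Pck1, the cytosolic phosphoenolpyruvate carboxykinase, leads pyruvate carbon back towards glucose, and Slc2a2 is the carrier through which glucose enters and leaves hepatocytes.

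The promoters of Pklr and Pck1 are classic models of control by feeding and by fasting hormones, and the 250 bases before the start site of each are shown because these genes stand for the opposite directions of the pathway. Both sequences are from RefSeq, build GRCr8, on the plus strand, Pklr at chr2:176841014-176841263 and Pck1 at chr3:182348322-182348571. Capitals mark matches to the patterns searched.
Pklr: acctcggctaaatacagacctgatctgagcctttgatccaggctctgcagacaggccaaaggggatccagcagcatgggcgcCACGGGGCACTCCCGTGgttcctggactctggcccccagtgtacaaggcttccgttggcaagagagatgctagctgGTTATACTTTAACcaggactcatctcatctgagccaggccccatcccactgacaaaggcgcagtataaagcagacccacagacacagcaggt
Pck1: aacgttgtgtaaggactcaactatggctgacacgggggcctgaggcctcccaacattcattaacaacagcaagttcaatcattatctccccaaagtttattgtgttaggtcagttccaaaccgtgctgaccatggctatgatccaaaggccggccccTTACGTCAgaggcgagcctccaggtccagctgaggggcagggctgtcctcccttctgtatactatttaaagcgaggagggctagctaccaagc
In the Pklr window the first run of capitals is a spaced pair of E-box-like sites, searched as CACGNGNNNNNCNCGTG, and lies 168 to 152 bases before the start. This is the form of element through which carbohydrate acts on the gene. The second, 92 to 80 bases before the start, matches the pattern GTTANNNNNTAAC of the liver factor HNF1. In the Pck1 window the capitals mark a cAMP response element, TTACGTCA, 93 to 86 bases before the start.

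All 6 genes matched a RefSeq window by gene ID. Patterns were searched on both strands and were chosen from the known elements of these promoters. The spaced pair occurred in 0.0209% of the 33469 windows of the same length, the HNF1 pattern in 0.233% and TTACGTCA in 0.75%. Among the 6 genes each of these 3 patterns was found in 1 window. The plain E-box CACGTG, present in 5.59% of all windows, was found in the Pdk2 window alone, 143 to 138 bases before the start. The windows of Gckr, Pfkfb1 and Slc2a2 held none of the 4 patterns. A match is a stretch of letters and not evidence that a factor was bound in these livers.

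The authors deposited 1 log ratio per feature and array, read here as log2 of ANIT pool over olive oil pool. The direction rests on the channel order of the labels and is likely rather than stated, so the opposite direction would turn every sign below, make each lower level a higher one by the same fold, and count each rank from the other end. Which logarithm was used is also not given in the sources at hand, and natural logarithms would make each fold larger. Calls of higher or lower required a mean ratio of at least 2-fold (1 in log2) and 1 sign throughout the 4 arrays. Array medians lay at -0.68 and -0.64 when Cy5 marked the ANIT pool and at 0.31 and 0.35 when Cy3 did, and the ratios were used without centring. The median over all features was -0.25, and centring each array moved every mean up by 0.17. Repeat arrays of the same dye orientation differed with an SD of 0.15, pooled over all features.

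The glycolytic genes Pklr and Gckr were more than 2-fold lower in the ANIT pool on every array, 1 Pfkfb1 feature and Pdk2 had mean ratios near that limit, the other Pfkfb1 feature and Pck1 were at about 1.5-fold, and Slc2a2 lay at about 0. By the 2-fold rule 3 of the 7 features were lower and none was higher. These were Pklr, Gckr and 1 of the 2 Pfkfb1 features. Over all features 3.05% were lower and 0.775% higher by the same rule. All features include 485 with no gene symbol, among them runs of spots with nearly equal ratios. These spots also entered the ranks and the medians over all features, so none of these describes genes alone. By gene means 3.55% of genes were lower and 0.626% higher. Of the 7 features, 6 had a ratio below 0 on all 4 arrays, as had 17.6% of all features. The genes were chosen with earlier results of these data known, so these shares give no test of the set. In liver RNA, fewer cells of a type and less RNA per cell cannot be told apart.

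Pklr had log2 ratios of -1.82, -1.56, -1.73 and -1.50 on arrays 1 to 4. The mean of -1.65 ± 0.15 placed the transcript in the ANIT pool at 31.8% of its level in the olive oil pool (3.14-fold lower, or 314% with the direction turned), or 5.22-fold lower if the logarithms were natural. All 4 arrays lay below the 2-fold limit, and the arrays with ANIT in Cy5 were lower than those with ANIT in Cy3 by 0.25, a small gap beside the 0.79 of the median feature. Pklr was the feature of rank 20 from the lowest of 1936 by its mean. It stayed among the lowest ranks on each array, at 51 and 47 on the arrays with ANIT in Cy5 and at 22 and 23 on the others.

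Gckr had ratios of -1.53, -1.35, -1.51 and -1.61, with a mean of -1.50 ± 0.11 (2.83-fold lower, rank 25). Its SD was the smallest of the 7 features, and its means in the 2 dye orientations, -1.52 and -1.48, were nearly equal. Its rank was less even than its ratio. With ANIT in Cy3 it ranked 35 and 18 on arrays 2 and 4, whereas with ANIT in Cy5 it ranked 193 and 187, since many other features had low ratios on those arrays. Between Pklr and Gckr the ratios differed by -0.15 ± 0.18, with Pklr lower on arrays 1 to 3 and Gckr lower on array 4, so their order was not settled.

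**Figure D1:**
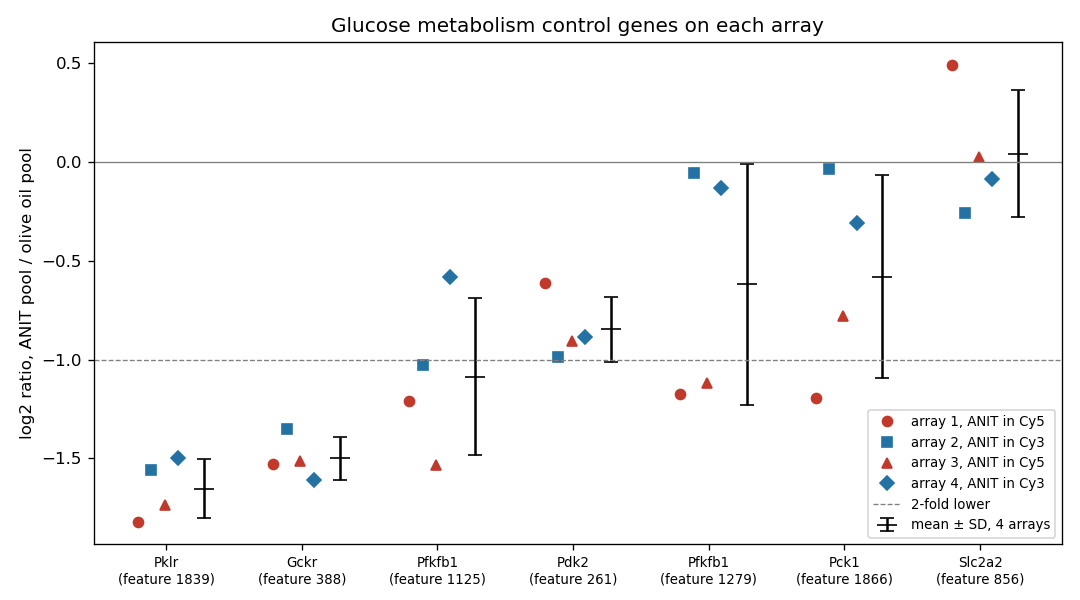
Log2 ratio of the ANIT over the olive oil pool for the 7 features on each array, coloured by the dye of the ANIT pool, with the mean and SD over 4 hybridisations as black bars. Pklr and Gckr lie below the dashed 2-fold line on all 4 arrays, and Slc2a2 spans 0. The 2 dye orientations overlap for Gckr and Pdk2 alone, and lie farthest apart for Pfkfb1 feature 1279 and Pck1.

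Pfkfb1 was measured by 2 features that gave different sizes. Feature 1125 had ratios of -1.21, -1.03, -1.53 and -0.58 (mean -1.09 ± 0.40, 2.12-fold lower), and feature 1279 had -1.17, -0.05, -1.12 and -0.13 (mean -0.62 ± 0.61, 1.54-fold lower). Feature 1125 passed the rule and was the lower of the pair on every array, by 0.03 on array 1 and by 0.97, 0.41 and 0.45 on arrays 2 to 4. Its call rested on array 2, without which its mean was -0.97. It also missed the limit with ANIT in Cy3 alone (-0.80) and with centred arrays (-0.92).

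The other Pfkfb1 feature followed the dye. Its mean was -1.15 with ANIT in Cy5 but -0.09 with the dyes swapped, a gap of -1.06. After each array was centred on its median, its 4 values lay within an SD of 0.059 around -0.45, against an SD of 0.61 before centring. For Pklr and Gckr centring had the reverse effect, raising the SD from 0.15 to 0.43 and from 0.11 to 0.56. Averaged over both features Pfkfb1 stood at -0.85 ± 0.48 and did not reach 2-fold.

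Pdk2 had ratios of -0.61, -0.98, -0.91 and -0.88, all below 0 and all short of 2-fold. Its mean of -0.85 ± 0.16 (1.80-fold lower) ranked 79 from the lowest, inside the lowest 4.08% of features. The array value farthest from the rest was that of array 1. As with Gckr the ratio was steadier than the rank, which was 57 and 66 with ANIT in Cy3 and 1021 and 726 with ANIT in Cy5. On array 1 Pdk2 thus lay above the median of all features by 0.066.

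Pck1, the measured gene of gluconeogenesis, had ratios of -1.20, -0.04, -0.78 and -0.31 and a mean of -0.58 ± 0.51. It was 1.49-fold lower by its mean and did not pass the rule. The arrays with ANIT in Cy5 (mean -0.99) and in Cy3 (mean -0.17) did not overlap, with a gap of -0.81 close to that of the median feature. Within each orientation its repeat arrays differed by 0.42 and 0.27.

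Slc2a2 had ratios of 0.49, -0.26, 0.02 and -0.09. Its mean was 0.04 ± 0.32, with arrays on both sides of 0, and ranked 1561 from the lowest. It was the only one of the 7 features with a mean above 0. Its ratios were higher with ANIT in Cy5 (0.26) than with ANIT in Cy3 (-0.17), opposite to the order of most features, and its rank ran from 305 and 408 with ANIT in Cy3 to 1803 and 1616 with ANIT in Cy5. These ratios do not show that Slc2a2 was unchanged.

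**Figure D2:**
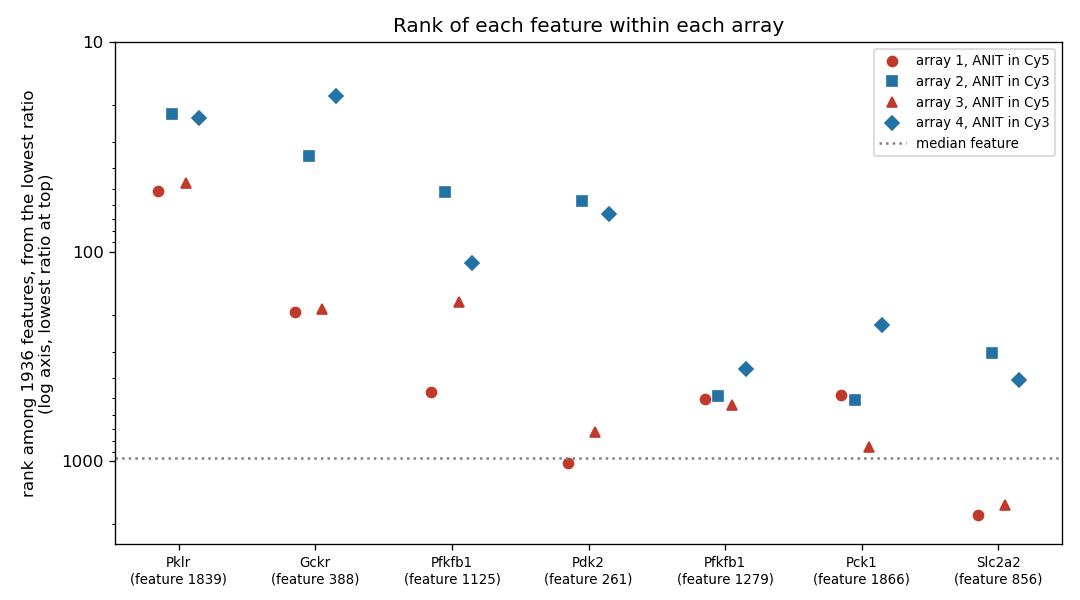
Rank of the 7 features among the 1936 features of each array, counted from the lowest ratio and drawn on a log axis with the lowest ratio at the top. Pklr ranks between 22 and 51 on all 4 arrays, whereas Gckr, Pdk2 and Slc2a2 rank nearer the top on the arrays with ANIT in Cy3 (blue).

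The dye orientation touched the 7 features unequally. Over all features the ratio with ANIT in Cy5 minus that with ANIT in Cy3 had a median of -0.79 and a middle range from -1.57 to -0.04. Gckr (-0.04), Pdk2 (0.18), Pklr (-0.25) and Slc2a2 (0.43) lay well above this median, and both Pfkfb1 features (-0.57 and -1.06) and Pck1 (-0.81) lay closer to it. What set this gap apart between features was not tested, and spot intensities were not analysed here.

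**Figure D3:**
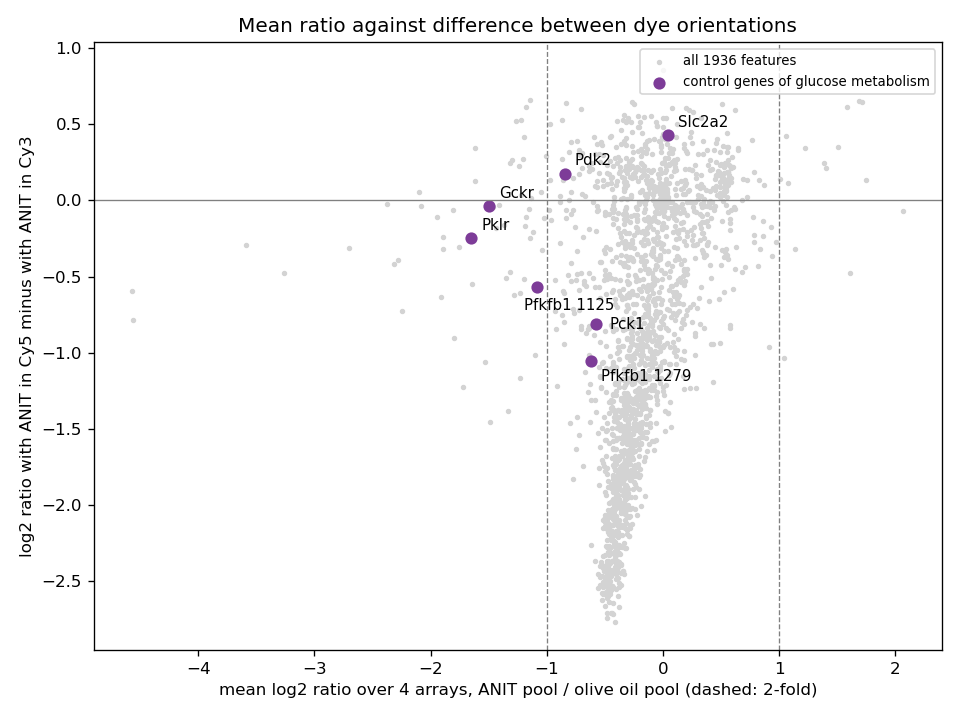
Mean log2 ratio over 4 arrays (horizontal) against the ratio with ANIT in Cy5 minus that with ANIT in Cy3 (vertical) for all 1936 features in grey and the 7 features in purple. Pklr and Gckr lie left of the 2-fold line with gaps of -0.25 and -0.04, while Pck1 (-0.81) and Pfkfb1 feature 1279 (-1.06) have the largest gaps of the 7 features.

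Glycolytic regulators were set against Pck1 and Slc2a2 within each array, where any offset common to an array cancels. Of the 10 pairs of a regulator feature and a Pck1 or Slc2a2 feature, the regulator had the lower ratio on all 4 arrays in 7 and the higher ratio on all 4 in none, whereas 35.5% of all other features lay above Pck1 and 6.72% above Slc2a2 on every array. Against Pck1 this held for 3 of 5 regulator features, Pklr, Gckr and Pfkfb1 feature 1125. Among all other features 2.53% lay below Pck1 on all 4 arrays. Against Slc2a2 it held for 4 of 5, all but Pfkfb1 feature 1279, and for 14.1% of all other features. These pairs too were of genes chosen with earlier results known, so the shares describe them and do not test them.

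Pklr minus Pck1 was -0.62, -1.52, -0.96 and -1.19 on arrays 1 to 4, a mean of -1.07 ± 0.38. The transcript of the glycolytic enzyme was thus 2.10-fold lower relative to that of the gluconeogenic enzyme. Gckr minus Pck1 was -0.33, -1.32, -0.73 and -1.30 (mean -0.92 ± 0.48). The difference had the same sign on every array for both genes and was smallest on array 1, where Pck1 itself was lowest. For both genes it was smaller on each array with ANIT in Cy5 than on either array with ANIT in Cy3. A gap between dye orientations that differs between genes does not cancel within an array. This gap was -0.81 for Pck1, -0.25 for Pklr and -0.04 for Gckr.

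The order of Pck1 and the remaining regulators was less firm. Pfkfb1 feature 1125 lay below Pck1 by 0.99, 0.75 and 0.27 on arrays 2 to 4, but by 0.012 on array 1. Feature 1279 did not separate from Pck1, with a mean difference of -0.04 ± 0.22 and both signs among the arrays. Pdk2 lay above Pck1 by 0.59 on array 1 and below it on the other arrays (mean difference -0.27 ± 0.66). On these arrays Pdk2 and Pck1 were not ordered beyond their spread.

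Against Slc2a2 the differences were larger. Pklr lay lower by a mean of -1.70 ± 0.45 and Gckr by -1.54 ± 0.38, and the differences of both exceeded 2-fold on every array. For Pdk2 the 4 differences were -1.10, -0.73, -0.93 and -0.80 (mean -0.89 ± 0.16), the smallest spread of the 10 pairs. Pck1 minus Slc2a2 was -1.69, 0.22, -0.80 and -0.22, so this pair did not keep its sign.

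**Figure D4:**
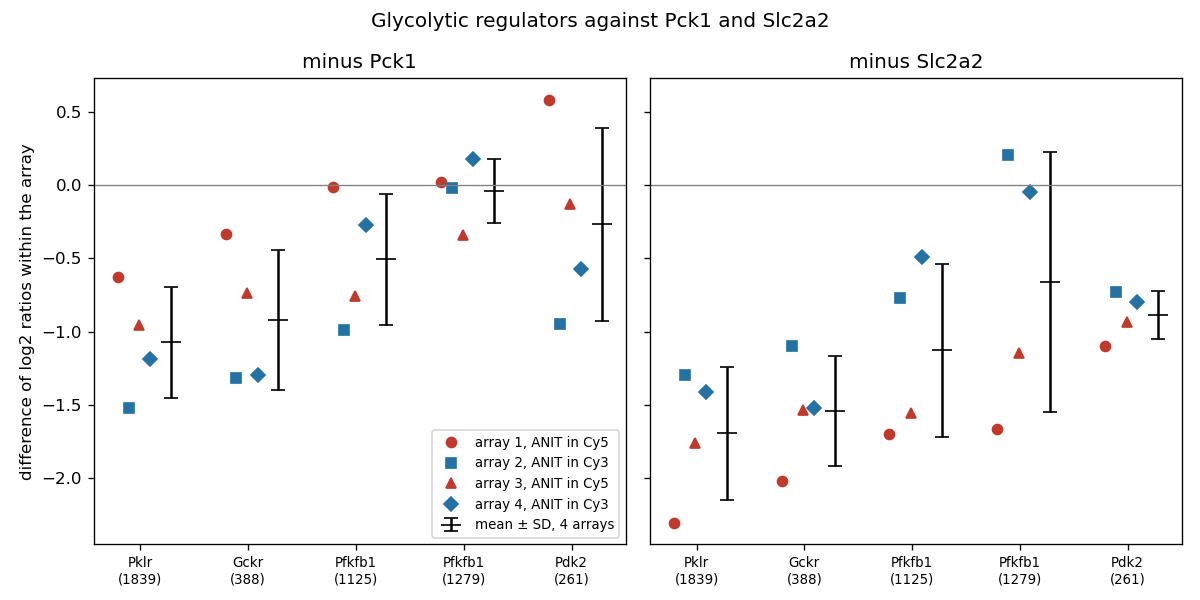
Difference of log2 ratios within each array between the 5 regulator features and Pck1 (left) or Slc2a2 (right), with the mean and SD over 4 arrays as black bars. Pklr and Gckr lie below 0 on every array in both panels, and Pfkfb1 feature 1279 spans 0 in both.

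Among the regulators themselves, Pklr lay below both Pfkfb1 features and Pdk2 on all 4 arrays, by means of -0.57 ± 0.30, -1.03 ± 0.47 and -0.81 ± 0.29. Gckr lay below Pdk2 on all 4 arrays (-0.65 ± 0.23) and below Pfkfb1 feature 1279 (-0.88 ± 0.59), but above feature 1125 on array 3 by 0.02. Neither Pfkfb1 feature kept its order with Pdk2. From the lowest mean upwards the order was Pklr, Gckr, Pfkfb1 feature 1125, Pdk2, Pfkfb1 feature 1279, Pck1 and Slc2a2, and no neighbouring pair in it kept the same order on all 4 arrays.

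The wider pathway was described by 8 lists covering glycolysis, its regulators, gluconeogenesis, pyruvate dehydrogenase, glycogen, glucose and monocarboxylate carriers, fructose and galactose, and NADPH supply. The lists named 97 genes, of which 27 were measured, 21 of them besides the 6 control genes. Pklr and Gckr were the 2 genes called lower by gene mean, and none was higher, where 3.55% of all genes were lower and 0.626% higher. Both had been chosen with earlier results known, so this count gives no test of the pathway. None of the other 21 genes passed. Their median was -0.33, against -0.24 over all genes, and 18 of the 21 had a mean below 0, or 85.7%, against 78.8% of all genes. Their median was -0.59 with ANIT in Cy5, where that of all genes was -0.62, and 0.21 with the dyes swapped, where that of all genes was 0.29. Glucokinase, glucose-6-phosphatase and fructose bisphosphatase were not analysed here, and Pck1 stood alone for gluconeogenesis, as Pdk2 did for pyruvate dehydrogenase.

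Pklr had the lowest mean of the 11 measured glycolytic enzymes. The other 10 had a median of -0.28 and means from -0.65 to 0.20. Pgk1, a phosphoglycerate kinase, had ratios below 0 on all 4 arrays (-0.45 ± 0.15), and Pgam1, a phosphoglycerate mutase, had the highest mean (0.20 ± 0.22). Hk1, a hexokinase found mainly outside hepatocytes, stood at -0.65 ± 0.74 with arrays from -1.43 to 0.11. The phosphofructokinase isoforms Pfkp (-0.48 ± 1.04) and Pfkm (-0.41 ± 1.08) changed sign between dye orientations, whereas the liver isoform Pfkl stood at -0.23 ± 0.14 with all arrays below 0.

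Of 4 measured glycogen genes none passed the rule. Gys2, the liver glycogen synthase, was above 0 on all 4 arrays (0.36 ± 0.12), with its 2 features at 0.34 and 0.38. Pygm, the muscle glycogen phosphorylase (-0.48 ± 1.33), Gsk3b, a kinase that inhibits glycogen synthase (-0.14 ± 0.83), and Phkg2, a phosphorylase kinase subunit (-0.04 ± 0.53), each changed sign between dye orientations. The other 5 carriers had a median of -0.37, and the glucose carriers Slc2a1 (-0.44 ± 1.25), Slc2a4 (-0.37 ± 0.72) and Slc2a9 (-0.09 ± 0.59) and the monocarboxylate carrier Slc16a7 (-0.39 ± 0.70) did so too. Slc2a2 differed from these in being higher with ANIT in Cy5. For Slc2a4 the change of sign is that of the mean over 5 features. These ranged from -0.73 to 0.05, with gaps between dye orientations from -2.12 to -0.01.

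Khk, the ketohexokinase that admits fructose to glycolysis, and Me1, the malic enzyme that supplies NADPH, were the sole measured genes of their lists. Khk had ratios of -1.07, -0.42, -1.18 and -0.17 (mean -0.71 ± 0.49) and Me1 of -1.23, -0.50, -1.09 and -0.60 (mean -0.86 ± 0.36). Both lay below 0 on all 4 arrays and missed 2-fold, as Pdk2 did.

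**Figure D5:**
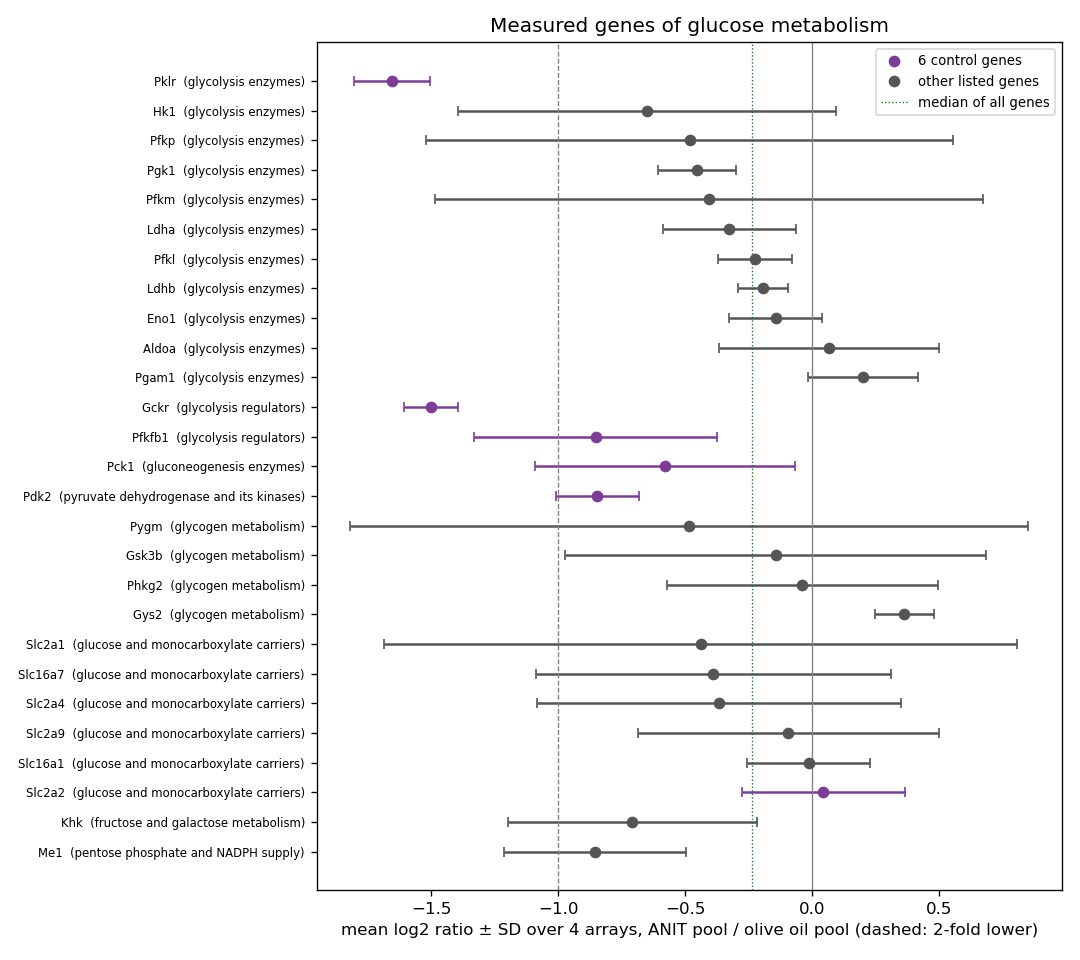
Mean log2 ratio over 4 arrays with its SD for the 27 measured genes of the 8 lists, with the 6 control genes in purple, the dashed line at 2-fold lower and the dotted line at the median of all genes. Pklr and Gckr alone lie left of the dashed line, and Gys2 lies above 0 with an SD of 0.12.

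Hormone signals that act on these genes were sparsely measured. Of 11 genes of insulin and glucagon signalling none passed the rule (median -0.16). Gcgr, the glucagon receptor, had nearly the same ratio on all 4 arrays, -0.86, -0.91, -0.93 and -0.86 (mean -0.89 ± 0.034). Adra1b, an adrenergic receptor that mobilises liver glycogen, stood at -0.71 ± 0.33, and Nr3c1, the glucocorticoid receptor, at -0.51 ± 0.49. The 3 features of Nr3c1 had means of -0.28, -0.43 and -0.82. Prkar1a, a regulatory subunit of protein kinase A, was above 0 on all arrays (0.38 ± 0.057). Among 3 measured transcription factors of liver glucose genes Rxra, a nuclear receptor partner, stood at -0.51 ± 0.20 and Cebpd, a factor of the acute phase, at 0.20 ± 0.21.

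Feeding induces lipogenic genes along with Pklr. Of the 6 measured genes listed as lipogenic in the fed liver, 4 were lower by gene mean, Fasn, Scd, Fads2 and Acsl1. No gene was higher, where 3.55% of all genes were lower and 0.626% higher. Me1 (-0.86 ± 0.36) and Scd2 (-0.21 ± 0.15) did not pass. Acsl1 activates fatty acids and is not particular to their synthesis. The median of the 6 genes was -1.99, against -0.24 over all genes, or -2.18 for ANIT in Cy5 and -1.80 for ANIT in Cy3. This group was listed with its low ratios already known. Besides Pck1, the fasting list held 3 measured genes, Got1, an aspartate aminotransferase (-0.73 ± 0.46), Cpt1a, which admits fatty acids to mitochondria (-0.51 ± 0.87), and Igfbp1, a binding protein of insulin-like growth factors (-0.25 ± 0.11). None passed the rule. The small SD of Igfbp1 is that of an average of 2 features with opposite gaps between dye orientations (-0.77 and 0.48). Each feature alone was less steady (-0.27 ± 0.47 and -0.22 ± 0.28). The 2 Cpt1a features stood at -0.50 ± 0.28 and -0.51 ± 1.47.

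Pklr and Pck1 differ in their place along the liver lobule, with Pklr more abundant around the central vein and Pck1 around the portal tract. Of the 5 other pericentral genes measured, Cyp1a2, a cytochrome P450, was higher (1.46 ± 0.19), Cyp7a1, which starts bile acid synthesis, was lower (-1.60 ± 0.78), and 3 did not pass by gene mean, among them the glutamate carrier Slc1a2 (-0.33 ± 0.76). Cyp2e1, also a cytochrome P450, stood at -0.51 ± 0.44 over 7 features that ranged from -1.24 to -0.10, and 2 of these features were lower by the rule (-1.24 ± 0.14 and -1.05 ± 0.14). In all, 4 of the 5 genes had a mean below 0, with Cyp1a2 the exception. Pck1 was the sole periportal gene measured of 13 listed.

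The features nearest to Pklr, by the square root of the summed squared differences in log2 ratio over the 4 arrays, were those of Casp4, an inflammatory caspase (0.40), Gckr (0.43), Cyb5r3, a cytochrome b5 reductase (0.44), Rab25, a small GTPase (0.44), and Slc10a1, the sodium-dependent bile acid carrier (0.44). The match did not extend to the other features of Casp4, at -0.15, and Cyb5r3, at -0.33. Nearest to Gckr were both features of Slc10a1 (0.18 and 0.21), Rab25 (0.28), Slc28a2, a nucleoside carrier (0.43), and Pklr (0.43). Pck1 lay nearest to Rabep2, an endosomal protein (0.31), Stat5b, a transcription factor of growth hormone signalling (0.34), Car4, a membrane carbonic anhydrase (0.34), Slco2b1, an organic anion carrier (0.35), and A2m, a plasma protease inhibitor (0.37). Of 4 Slco2b1 features, the near one had a gap between dye orientations of -0.84, and the others had 0.03, -0.20 and -0.11. The other Car4 feature had a mean of -0.75 and a gap of -1.63, beside -0.57 for the near one.

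Ratios of 2 pools hold no expression level, so the labelled tissue could not be checked against marker levels. Of 20 hepatocyte markers 7 were measured, with means from -0.28 to 0.56 and none past the rule, the farthest from 0 being Fgg, a fibrinogen chain (0.56 ± 0.12), and Serpina1 (-0.28 ± 0.96), followed by the plasma proteins Gc (-0.18 ± 0.26) and Ttr (-0.13 ± 0.27). Their median was -0.07. No listed marker of other cell types passed either, among 3 cholangiocyte (median -0.31), 3 endothelial (-0.33), 4 stellate cell and fibroblast (-0.16), 2 lymphocyte (-0.53) and 1 neutrophil (-0.13) genes, and no macrophage marker was measured. The listed bile duct genes were Spp1 (-0.37 ± 1.15), Ggt1 (-0.31 ± 1.11) and Aqp1 (-0.13 ± 0.096), the endothelial genes Kdr (-0.44 ± 0.48), Cdh5 (-0.33 ± 0.89) and Tek (-0.22 ± 1.01), and the stellate cell and fibroblast genes Col1a1 (-0.44 ± 0.72), Pdgfra (-0.21 ± 0.87), Vim (0.13 ± 0.073) and Timp1 (-0.11 ± 0.61). The small SD of Aqp1 is that of an average of 2 features, at -0.27 ± 0.071 and 0.009 ± 0.17. The 2 Serpina1 features stood at -0.07 ± 0.44 and -0.49 ± 1.49. The median of the cholangiocyte markers was -1.27 for ANIT in Cy5 but 0.62 for ANIT in Cy3. The part of cell composition in the low ratios of Pklr and Gckr was not tested. For 7 isoforms of glucose enzymes and carriers that belong mainly to other tissues the median was -0.44, and -1.33 and 0.43 by dye orientation.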

How the data were processed

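Per the labels' protocols, poly(A) RNA of the mixed liver RNA was labelled with Cy3 and Cy5 by reverse transcription. The authors deposited 1 log ratio per feature and array, read here as log2. The sources used here do not give the scanner, the background correction, any normalization, the log base or the direction. Values were used as deposited for 1936 features with 0 missing values. Of these, 485 had no gene symbol, among them runs of spots with nearly equal ratios. They were kept in the shares, ranks and medians over all features and in the array medians used for centring.

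Features were named through the platform annotation, and 1429 of 1432 features with 1 symbol matched a RefSeq table (GRCr8) by gene ID, all 6 control genes among them. Ratios were averaged over the 4 arrays, which balances the dyes. Lists used the mean over the features of a gene, and named genes were the 4 with the largest absolute mean in every list that had 3 or more measured genes, genes past the rule, and the 5 features nearest to Pklr, Gckr and Pck1. Khk, Me1, Pfkl, Pgam1, Scd2 and the features of Casp4, Cyb5r3, Igfbp1, Cpt1a, Slc2a4, Car4, Slco2b1, Aqp1, Serpina1 and Nr3c1 were named after their values were seen. The genes and lists were chosen with earlier results of these data known. The size rule was tested on simulated data in which the dye effect was exactly opposite on swapped arrays. That test could not show whether the dye effect cancels in the real arrays. The number of arrays limits the precision. Python 3.11.15 was used with pandas 2.3.3, numpy 2.4.6 and matplotlib 3.10.9.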

Additional observations from a re-analysis of the deposited data

Results flagged for a closer look

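Each of the 7 features and 52 other genes was checked for an array far from the other 3, by the gap to the nearest value as a share of the whole range. None of the 7 features was past Dixon's 95% critical value. Ttr, the plasma carrier transthyretin used as a hepatocyte marker, was past it with a share of 0.878, with -0.54 on array 3 against -0.003, 0.04 and -0.03 on arrays 1, 2 and 4. Chance alone puts about 1 in 20 sets past the limit where the 4 values vary around 1 level. Where a feature or gene follows the dye, the arrays fall into 2 groups. For these this rate does not hold, and an odd array can be missed.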

How the results depend on the processing

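Pklr and Gckr were called lower in every alternative run. These were a 1.5-fold limit, centred arrays, each dye orientation alone, each array left out, natural logarithms and gene means. With centred arrays Gckr lay at -0.85 and -0.87 on arrays 1 and 3, short of 2-fold, although its mean of -1.33 passed. The number of the 7 features called was 3, and 5 at 1.5-fold (6.92% of all features lower), where Pdk2 and Pfkfb1 feature 1279 were added. It was 2 to 3 with each array left out, for which no share over all features was formed. With ANIT in Cy5 alone it was 4, where 34.5% of all features were lower, and with natural logarithms 4 (5.84%). It was 2 with ANIT in Cy3 alone (2.84%), with centred arrays (2.48%) or by gene means (3.55% of all genes). Among the 27 pathway genes the number was 2, and 6 at 1.5-fold (8.35% of all genes lower) or with natural logarithms (7.1%), with Khk, Me1, Pdk2 and Pfkfb1 added. It was 10 with ANIT in Cy5 alone (30.6%) and 2 with each array left out, the latter again without a share over all genes. The number of pairs with the regulator lower was 7 of 10, and 7 to 8 over the left-out arrays. It was 8 in either dye orientation alone and 6 of 8 by gene means. For these pair counts the share of all other features was formed over the 4 arrays together alone. With fewer arrays the same sign is easier to keep, so the counts of these runs have no share to stand beside. The causes of the differences between runs were not tested. No paired analysis was possible because each condition had 1 pool, so that no animals or samples could be paired. Each ratio is itself a comparison within 1 array. Ratios near the limit, such as that of Pfkfb1, and differences smaller than the spread of 4 hybridisations could not be resolved.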
